A study of Macaca mulatta with 51 samples.

Results

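Branched-chain amino acid (BCAA) catabolism was followed through 10 named genes: BCAT2, BCKDHA, BCKDHB, DBT, BCKDK, PPM1K, IVD, MCCC1, MCCC2 and HIBADH. The members were taken as the rows of the count table that carry these symbols, which gave 9 of the 16033 genes in the table, and all 9 passed the filter on low counts in both tissues. IVD was not analysed here. RNA sequencing was performed on punch biopsies of subcutaneous adipose tissue (AT) and gastrocnemius skeletal muscle (SM) from 10 obese, non-diabetic rhesus macaques aged 11 to 22 years, males and ovariectomized females, all kept on a high-fat diet. Samples were taken before treatment (pre-treatment), at the end of 12 weeks of daily subcutaneous injection of native human FGF21 at rising doses (post-treatment), and again 16 weeks after the last treatment week (washout). One animal was held at a lower final dose. The paper reports that the animals lost body weight during treatment and were back at baseline weight by washout. With no untreated group in the RNA data, treatment, weight change and the passing of time cannot be told apart. AT was represented by 10, 9 and 8 libraries at the 3 time points and SM by 6, 8 and 7, with 15756491 to 23940980 counts per AT library and 14455195 to 21740711 per SM library. A further 3 labelled SM samples were not analysed here. Pre-treatment, 5 of 5 adipocyte markers were DE higher in AT and 9 of 9 muscle markers DE higher in SM, as the tissue labels say.

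Leucine, isoleucine and valine are broken down mainly in mitochondria. The transaminase BCAT2 removes the amino group, and the branched-chain ketoacid dehydrogenase (BCKDH) complex then commits the ketoacid to oxidation in a step that cannot be reversed. The complex is built from the decarboxylase subunits BCKDHA and BCKDHB, the acyltransferase core DBT and a dehydrogenase shared with other complexes. The kinase BCKDK phosphorylates BCKDHA and so inhibits the complex, and the phosphatase PPM1K removes that phosphate. Each amino acid then follows its own branch: IVD and the carboxylase of MCCC1 and MCCC2 belong to leucine, and HIBADH to valine. Adipocytes are known to take up and oxidize BCAA, and muscle is known for its high transaminase activity.

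Levels are given as CPM, the counts of a gene scaled to the depth of its library as adjusted by TMM factors, within a tissue. Changes are log2 fold changes from edgeR's quasi-likelihood test with animal in the model, with Benjamini-Hochberg adjusted p-values over all genes tested. Differential expression (DE) required both an adjusted p below 0.05 and a difference of more than 0.26 on the log2 scale, up or down. At the post-treatment time point 1 of the 9 members was DE against pre-treatment in AT, while 15.5% of all 13367 genes tested were DE. Between post-treatment and washout 3 members were DE, against 35.4% of all genes, and between pre-treatment and washout 3 were DE, against 20.5% of all genes. These shares are close to those of the whole table, and the members that were DE moved in different directions. The median log2 fold change of the 9 members was -0.06 post-treatment, where the median over all genes was 0.03. From post-treatment to washout the members' median was 0.06 against -0.0021 over all genes, and from pre-treatment to washout -0.05 against -0.02. For every member and every pair of time points the ranges of the libraries overlapped.

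**Figure D1:**
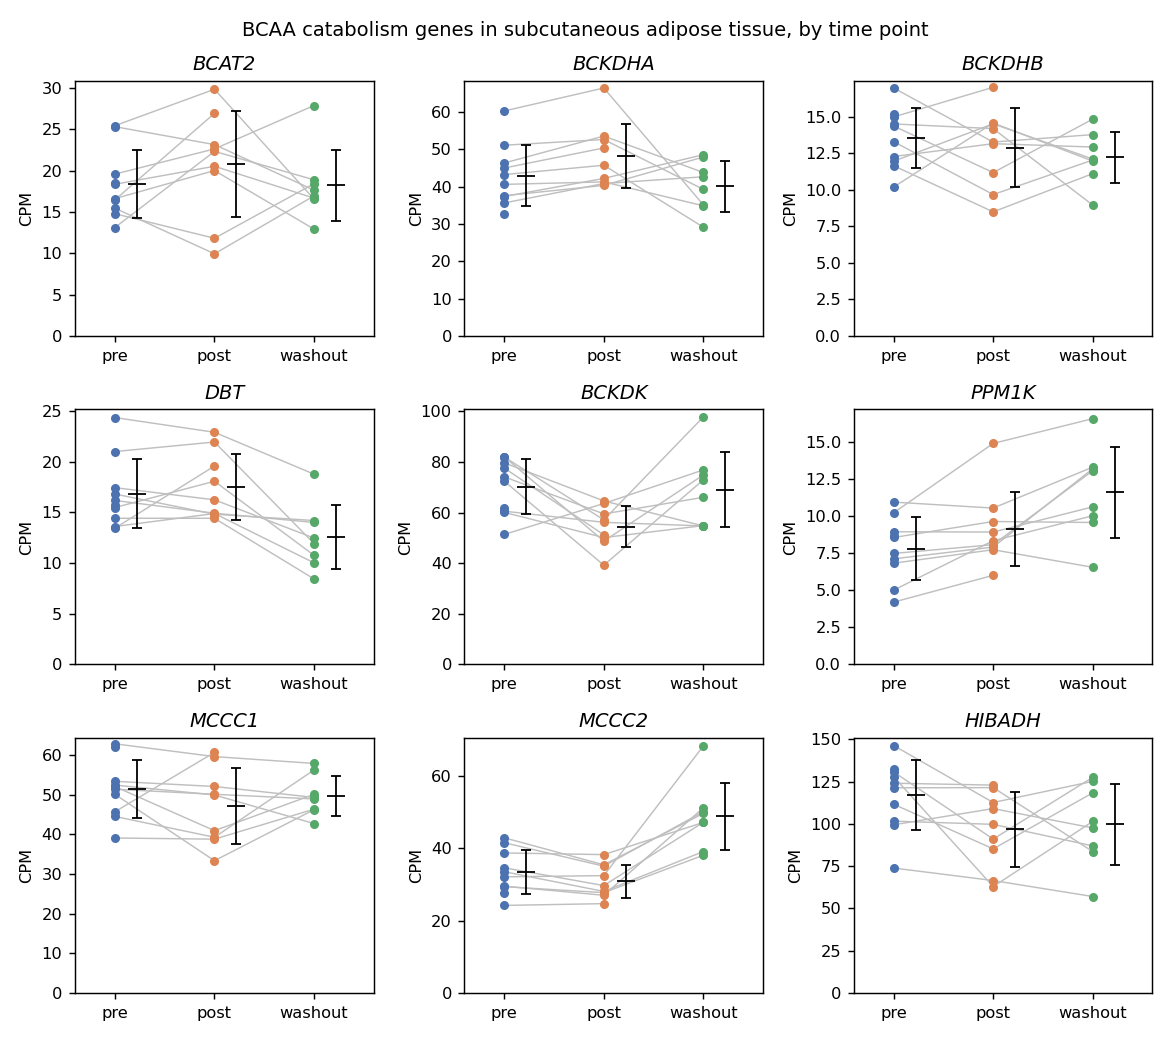
CPM of the 9 members in AT (vertical axes, each from 0) at pre-treatment (n = 10), post-treatment (n = 9) and washout (n = 8). Each point is 1 library, grey lines join the libraries of 1 animal, and the black marks give the mean and SD. BCKDK was lower post-treatment than pre-treatment in 8 of 9 animals, DBT was lower and MCCC2 higher at washout than post-treatment in 8 of 8.

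BCKDK (ENSG00000103507), the kinase that inhibits the complex, was the 1 member DE post-treatment against pre-treatment in AT. Its level ranged from 51.3 to 82.0 CPM pre-treatment with a median of 73.2, from 39.2 to 64.6 CPM post-treatment with a median of 56.1, and from 54.7 to 97.8 CPM at washout with a median of 69.5. The lowest post-treatment library was that of animal 22130, and the highest washout library was that of animal 21866. BCKDK fell post-treatment by 0.38 on the log2 scale (SE 0.11, adjusted p = 0.0331), from 70.2 ± 10.9 CPM (SD, n = 10) to 54.5 ± 8.03 CPM (n = 9), and was lower in 8 of the 9 animals with both samples. The exception was animal 24849, in which it was higher by 0.31. BCKDK rose again at washout, to 69.1 ± 14.9 CPM (n = 8), 0.33 above post-treatment on the log2 scale (SE 0.12, adjusted p = 0.0352), with 6 of 8 animals higher. Against pre-treatment the washout level differed by -0.05 (SE 0.12, adjusted p = 0.822).

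The fall of BCKDK lay close to the limit of the test. It was no longer DE when any 1 of animals 20275, 20456, 21189, 21866 or 22130 was left out, with log2 fold changes of -0.39 to -0.32 and adjusted p-values of 0.0561 to 0.101. The rise at washout lost its call without any 1 of animals 20261, 20275, 21189, 21866 or 22130, at 0.26 to 0.35 and adjusted p-values of 0.0524 to 0.127. With the number series of the library identifiers as a covariate BCKDK was DE in both steps, at -0.35 (adjusted p = 0.0241) and 0.33 (adjusted p = 0.0285).

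PPM1K (ENSG00000163644), the phosphatase that opposes BCKDK, was the least counted of the members in AT, with 76 to 310 counts per library. It ranged from 4.20 to 10.9 CPM pre-treatment (median 8.03), from 6.01 to 14.9 CPM post-treatment (median 8.35) and from 6.55 to 16.6 CPM at washout (median 11.8). Animal 22130 had the highest library at both later time points, and the groups overlapped. The difference post-treatment was 0.25 (SE 0.12, adjusted p = 0.131) and from post-treatment to washout 0.27 (SE 0.12, adjusted p = 0.0861), so that neither step passed the test. Over both steps PPM1K rose, by 0.52 on the log2 scale from pre-treatment to washout (SE 0.12, adjusted p = 0.00383), from 7.81 ± 2.13 CPM (n = 10) to 11.6 ± 3.06 CPM (n = 8), with 7 of 8 animals higher. In all 26 alternative fits of that comparison PPM1K kept its call.

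The balance of kinase to phosphatase mRNA is given as a description, since it was formed after the values were seen. The log2 ratio of BCKDK to PPM1K was lower post-treatment than pre-treatment in 8 of 9 animals, with a mean change of -0.64 ± 0.55 (SD, n = 9). At washout it was lower than pre-treatment in 7 of 8 animals, with a mean change of -0.53 ± 0.55 (n = 8), although BCKDK itself had come back to its starting level. Between post-treatment and washout the mean change of the ratio was 0.05 ± 0.65, with 4 of 8 animals higher.

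BCAT2 and the decarboxylase subunits did not pass the reported test in AT at any step. BCAT2, which takes the first step of the pathway, lay at 18.4 ± 4.16 CPM pre-treatment, 20.8 ± 6.43 CPM post-treatment and 18.3 ± 4.30 CPM at washout. Its post-treatment libraries spread from 9.95 CPM in animal 20275 to 29.9 CPM in animal 23004, with 6 animals higher and 3 lower than pre-treatment, and the log2 fold change was 0.15 (SE 0.15, adjusted p = 0.508). BCKDHA, the subunit that BCKDK phosphorylates, was higher post-treatment in 9 of 9 animals, but by only 0.02 to 0.21, and the fitted log2 fold change was 0.12 (SE 0.11, adjusted p = 0.437). That SE does not measure the spread of these 9 changes alone, since the 3 time points share 1 estimate. From post-treatment to washout the changes ran from -0.92 to 0.25. In all 26 alternative fits BCKDHA was not DE post-treatment (adjusted p of 0.169 to 0.636). Its level went from 43.0 ± 8.21 CPM to 48.2 ± 8.60 CPM and then to 40.2 ± 6.83 CPM at washout, a difference from post-treatment of -0.24 (SE 0.11, adjusted p = 0.112). BCKDHB, its partner subunit, was at 13.5 ± 2.03, 12.9 ± 2.67 and 12.2 ± 1.76 CPM at the 3 time points, with log2 fold changes between -0.09 and -0.03.

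DBT (ENSG00000137992), the acyltransferase core of the complex, changed at washout. It ranged from 13.4 to 24.3 CPM pre-treatment (median 15.9), from 14.4 to 22.9 CPM post-treatment (median 16.2) and from 8.43 to 18.8 CPM at washout (median 12.2). The library of animal 26292 was the highest at each time point, and 6 of the 8 washout libraries lay at or below 14.0 CPM. From pre-treatment to post-treatment DBT differed by 0.05 (SE 0.09, adjusted p = 0.723). At washout it fell by 0.50 on the log2 scale from post-treatment (SE 0.10, adjusted p = 0.000964) and by 0.44 from pre-treatment (SE 0.10, adjusted p = 0.00296), and was lower in 8 of 8 animals in both comparisons. The means were 16.8 ± 3.42, 17.5 ± 3.26 and 12.6 ± 3.17 CPM. As a description, the log2 ratio of DBT to BCKDHA, parts of a single complex, was higher at washout than post-treatment in 3 of 8 animals, with a mean change of -0.22 ± 0.51 (SD, n = 8).

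MCCC2 (ENSG00000131844), the beta subunit of methylcrotonyl-CoA carboxylase in the leucine branch, showed the largest change of any member in AT. It ranged from 24.2 to 42.9 CPM pre-treatment (median 32.8), from 24.7 to 38.2 CPM post-treatment (median 29.6) and from 38.0 to 68.2 CPM at washout (median 48.4). The washout libraries stood almost clear of the post-treatment ones, with only the lowest washout library, of animal 21866, below the highest post-treatment one. Post-treatment the difference was -0.13 (SE 0.09, adjusted p = 0.275). At washout MCCC2 rose by 0.61 on the log2 scale over post-treatment (SE 0.09, adjusted p = 6.34e-05) and of 0.48 over pre-treatment (SE 0.09, adjusted p = 0.000661), and it was higher in 8 of 8 animals in both comparisons. The means were 33.4 ± 6.12, 30.9 ± 4.57 and 48.8 ± 9.27 CPM.

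MCCC1 encodes the alpha, biotin-carrying subunit of the same carboxylase and was not DE in AT between any of the time points. After centring log2 CPM within animals, its correlation with MCCC2 over the AT libraries was 0.357. It was at 51.4 ± 7.32 CPM pre-treatment, 47.2 ± 9.63 CPM post-treatment and 49.8 ± 5.11 CPM at washout. The log2 fold changes were -0.10 (SE 0.09, adjusted p = 0.445) post-treatment and 0.11 (SE 0.09, adjusted p = 0.365) from there to washout. As a description, the log2 ratio of MCCC2 to MCCC1 was higher at washout than post-treatment in 8 of 8 animals, with a mean change of 0.47 ± 0.35 (SD, n = 8) and a range of 0.04 to 1.11. Post-treatment the same ratio was higher than pre-treatment in 4 of 9 animals, with a mean change of -0.03 ± 0.20.

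HIBADH, the hydroxyisobutyrate dehydrogenase of the valine branch, did not pass the reported test at any step in AT. It was at 117 ± 20.8 CPM pre-treatment, 96.8 ± 22.2 CPM post-treatment and 99.7 ± 24.0 CPM at washout. It was lower post-treatment in 7 of 9 animals, by as much as 1.02 in animal 22130, but the log2 fold change of -0.25 (SE 0.11, adjusted p = 0.116) did not pass the test. From pre-treatment to washout the difference was -0.19 (SE 0.11, adjusted p = 0.257), and HIBADH was lower in 7 of 8 animals.

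**Figure D2:**
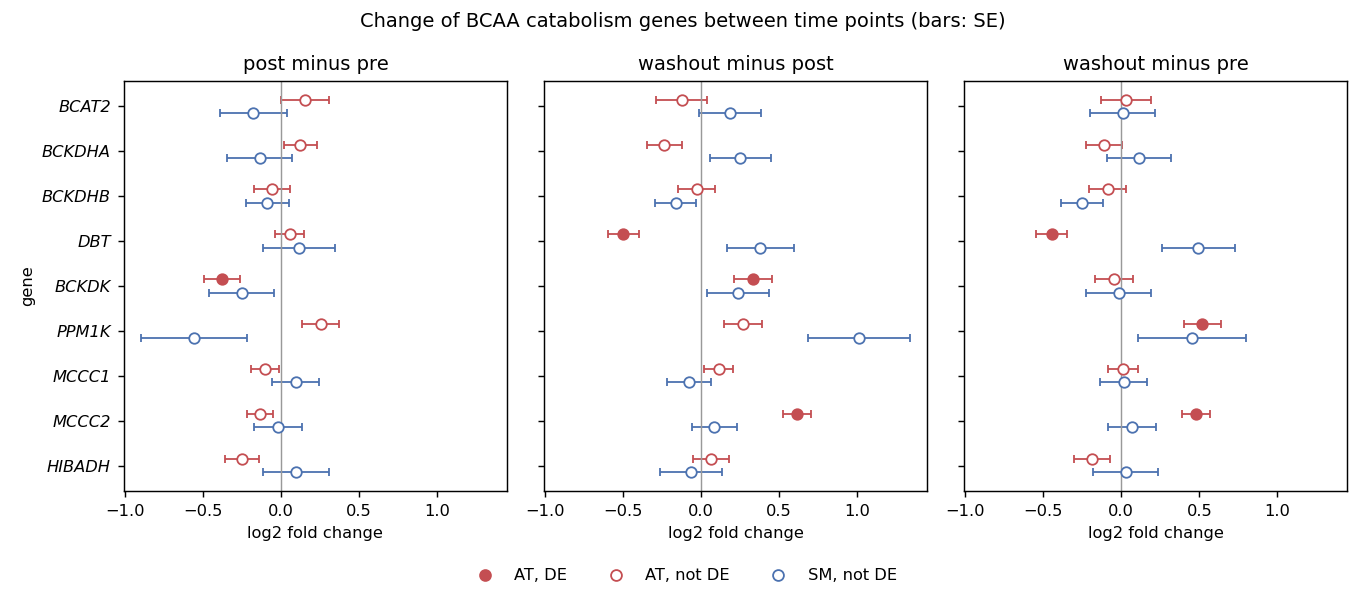
Log2 fold change (horizontal axes) of the 9 members between each pair of time points, in AT (red) and SM (blue). Bars give the SE, filled points were DE and open points were not. In AT the filled points are BCKDK post-treatment, DBT, BCKDK and MCCC2 from post-treatment to washout, and DBT, PPM1K and MCCC2 from pre-treatment to washout, and no point is filled in SM.

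Markers of other cell types in the AT biopsies moved over the same time points. In bulk tissue, fewer cells of a type and less RNA per cell cannot be told apart. All 12 macrophage markers were higher post-treatment, 4 of them DE, and all 12 fell from post-treatment to washout. Their summed level ranged from 806.1 to 3000 CPM pre-treatment (median 1646), from 1234 to 7581 CPM post-treatment (median 3159) and from 563.5 to 2866 CPM at washout (median 868.8). Of 5 adipocyte markers measured, 5 were lower post-treatment and 2, LPL and PLIN1, were DE. Their summed level ranged from 20360 to 44810 CPM pre-treatment (median 26240), from 14110 to 33590 CPM post-treatment (median 22720) and from 12960 to 40640 CPM at washout (median 21260). The largest macrophage rises were those of animals 20275 and 22130, with mean log2 changes of 2.71 and 2.10, and the adipocyte markers of the same animals changed by -1.54 and -1.53. In each of these animals 7 of the 9 members were lower post-treatment, and BCKDK went from 82.0 to 48.7 CPM in animal 20275 and from 72.4 to 39.2 CPM in animal 22130.

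With either set of markers in the fit BCKDK lost its post-treatment call, while DBT, MCCC2 and PPM1K kept their calls at washout. Over all genes the 2068 post-treatment calls became 311 with the macrophage covariate and 404 with the adipocyte covariate. The part of cell composition in the change of any member was not tested. With the mean macrophage level as a covariate the post-treatment log2 fold change of BCKDK was -0.25 (adjusted p = 0.269), and with the mean adipocyte level it was -0.23 (adjusted p = 0.268). Without animals 20275 and 22130 it was -0.26 (adjusted p = 0.247), in a fit where the 2068 calls over all genes became 342. From post-treatment to washout BCKDK changed by 0.06 (adjusted p = 0.874) with the macrophage covariate and by 0.32 (adjusted p = 0.016) with the adipocyte covariate. DBT was lower at washout than post-treatment by -0.72 (adjusted p = 0.00548) and -0.51 (adjusted p = 0.00021) with the macrophage and the adipocyte covariate, and MCCC2 higher by 0.46 (adjusted p = 0.0432) and 0.61 (adjusted p = 4.57e-05). For PPM1K the rise from pre-treatment to washout was 0.54 (adjusted p = 0.00965) and 0.45 (adjusted p = 0.0157). The macrophage covariate also added calls: BCAT2 was DE from post-treatment to washout, at -0.67 (adjusted p = 0.0499) in place of -0.12, and HIBADH from pre-treatment to washout, at -0.41 (adjusted p = 0.0115) in place of -0.19.

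The members did not vary as 1 group across the AT libraries. After centring log2 CPM within animals over the 27 AT libraries, which share animals and time points, the correlation r of a member with the mean of the others was 0.707 for MCCC1, 0.607 for HIBADH, 0.585 for BCAT2 and 0.514 for BCKDHB. It was 0.289 for BCKDK and 0.112 for BCKDHA. For DBT and MCCC2 it was -0.002 and 0.003, and for PPM1K it was -0.306. Among pairs, DBT and MCCC2 had the most negative value, r = -0.745, and HIBADH and MCCC1 the most positive, r = 0.709. Outside the members, the genes whose centred levels were most like the mean of the 9 members were S100B (r = 0.88), GYG2 (r = 0.876), ZSCAN30 (r = 0.859), KLHDC8B (r = 0.844) and NOX5 (r = 0.839).

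The rest of the pathway was counted from lists of genes. The macrophage and adipocyte markers above moved over the same steps as these lists, and their part in the counts was not tested. Of 19 other BCAA enzymes and carriers tested in AT, 0 rose and 4 fell post-treatment, 15 had a negative log2 fold change and the median was -0.13. Over all genes tested in AT 6.98% rose and 8.49% fell post-treatment, and 17.6% rose and 17.8% fell from there to washout. The 4 enzymes and carriers that fell were HSD17B10 (-0.39, SE 0.13, adjusted p = 0.0463), a dehydrogenase of the isoleucine branch, HADHA (-0.30, SE 0.09, adjusted p = 0.0407), a subunit of the trifunctional protein of fatty acid oxidation, PCCB (-0.40, SE 0.13, adjusted p = 0.0468), the beta subunit of propionyl-CoA carboxylase, and SLC25A44 (-0.28, SE 0.09, adjusted p = 0.0468), the mitochondrial BCAA carrier. SLC25A44 was at 52.2 ± 6.44 CPM pre-treatment and 43.7 ± 7.42 CPM post-treatment and was lower in 9 of 9 animals. DLD, the dehydrogenase that the BCKDH complex shares with the pyruvate complex, differed by -0.32 (SE 0.12, adjusted p = 0.0632) and did not pass the test.

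Between post-treatment and washout 2 of the 19 rose and 2 fell, with a median of 0.05. AUH, which follows the MCCC carboxylase in the leucine branch, rose by 0.40 (SE 0.11, adjusted p = 0.0097), and the hydratase ECHS1 by 0.38 (SE 0.13, adjusted p = 0.029). BCAT1, the cytosolic transaminase, fell by 1.22 on the log2 scale (SE 0.24, adjusted p = 0.000997), from 80.7 ± 30.7 CPM to 36.6 ± 18.3 CPM, and was lower in 8 of 8 animals. PCCA, the alpha subunit of propionyl-CoA carboxylase, fell by 0.38 (SE 0.12, adjusted p = 0.0181). As with MCCC1 and MCCC2, the subunits PCCA and PCCB were not called in the same comparison.

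Among 4 transporters of neutral amino acids tested in AT, 1 was DE post-treatment, where 15.5% of all genes were DE. From there to washout 2 were DE, where 35.4% of all genes were. SLC7A8, a light chain that carries neutral amino acids across the plasma membrane, rose post-treatment by 1.14 on the log2 scale (SE 0.27, adjusted p = 0.0125), from 28.8 ± 9.67 CPM to 67.6 ± 37.7 CPM, and was higher in 8 of 9 animals. It fell by 1.81 at washout (SE 0.29, adjusted p = 0.000144), to 19.2 ± 9.31 CPM. SLC3A2, the heavy chain that pairs with it, fell at washout by 0.46 (SE 0.13, adjusted p = 0.0084). The macrophage markers rose and fell in the same steps as SLC7A8, and their part in the result was not tested.

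Of 9 genes for cofactors and electron acceptors, 0 rose and 3 fell post-treatment in AT, where 8.49% of all genes fell. HLCS, the ligase that attaches biotin to carboxylases such as that of MCCC1 and MCCC2, fell by 0.54 (SE 0.14, adjusted p = 0.0193), from 56.5 ± 12.4 to 38.6 ± 6.22 CPM, and was lower in 9 of 9 animals. BTD, which recycles biotin, fell by 0.44 (SE 0.14, adjusted p = 0.0429), and ETFDH, which passes electrons from the acyl-CoA dehydrogenases to the respiratory chain, by 0.39 (SE 0.12, adjusted p = 0.0406). Between post-treatment and washout the log2 fold changes of the 9 ran from -0.19 to 0.21. At washout HLCS was still below pre-treatment, by -0.57 (SE 0.15, adjusted p = 0.00931), and was lower in 8 of 8 animals.

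Of 5 transcription factors and coactivators described for the pathway, 0 rose and 1 fell post-treatment, where 6.98% of all genes rose and 8.49% fell. From there to washout 3 rose and 0 fell, where 17.6% of all genes rose and 17.8% fell. PPARG, the adipocyte master regulator, fell post-treatment by 0.70 (SE 0.16, adjusted p = 0.0111), from 308.7 ± 63.4 to 194.9 ± 53.1 CPM, and rose at washout by 0.49 (SE 0.17, adjusted p = 0.0303). PPARGC1A, a coactivator of mitochondrial genes, rose at washout by 1.02 (SE 0.30, adjusted p = 0.0134), from 3.62 ± 1.48 to 8.33 ± 7.52 CPM, where 1 library reached 26.3 CPM. MLXIPL, the carbohydrate response factor, rose at washout by 1.41 (SE 0.24, adjusted p = 0.000253), from 46.1 ± 16.5 to 126.7 ± 49.1 CPM, and was higher in 8 of 8 animals.

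The pyruvate dehydrogenase (PDH) complex is built like the BCKDH complex and controlled by its own kinases. Of 11 genes for its subunits, kinases and phosphatases, 2 rose and 5 fell post-treatment in AT, where 15.5% of all genes were DE, and 5 rose and 3 fell from there to washout, where 35.4% were. PDHA1 fell by 0.49 (SE 0.12, adjusted p = 0.0127), PDHB by 0.38 (SE 0.10, adjusted p = 0.0183) and DLAT by 0.54 (SE 0.13, adjusted p = 0.0126), and at washout they rose by 0.47, 0.38 and 0.52. Their BCKDH counterparts BCKDHA, BCKDHB and DBT had post-treatment values of 0.12, -0.06 and 0.05, and none passed the test. PDK4, a kinase that inhibits the PDH complex, rose post-treatment by 1.12 on the log2 scale (SE 0.19, adjusted p = 0.00235), from 230.6 ± 90.0 to 468.7 ± 132.3 CPM, and was higher in 9 of 9 animals, while BCKDK fell in the same comparison. PDK4 fell at washout by 1.29 (SE 0.20, adjusted p = 0.000116) while BCKDK rose. The other PDH kinases did not move like PDK4, and their mean levels were lower post-treatment than pre-treatment. PDK1 went from 38.09 to 31.95 CPM, PDK2 from 67.28 to 53.09 CPM and PDK3 from 35.16 to 23.35 CPM. Of 15 genes of the TCA cycle tested, 0 rose and 6 fell post-treatment, and of 13 genes of fatty acid oxidation 1 rose and 4 fell, beside the 6.98% higher and 8.49% lower of all genes. Whether these lists differed from the members was not tested.

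**Figure D3:**
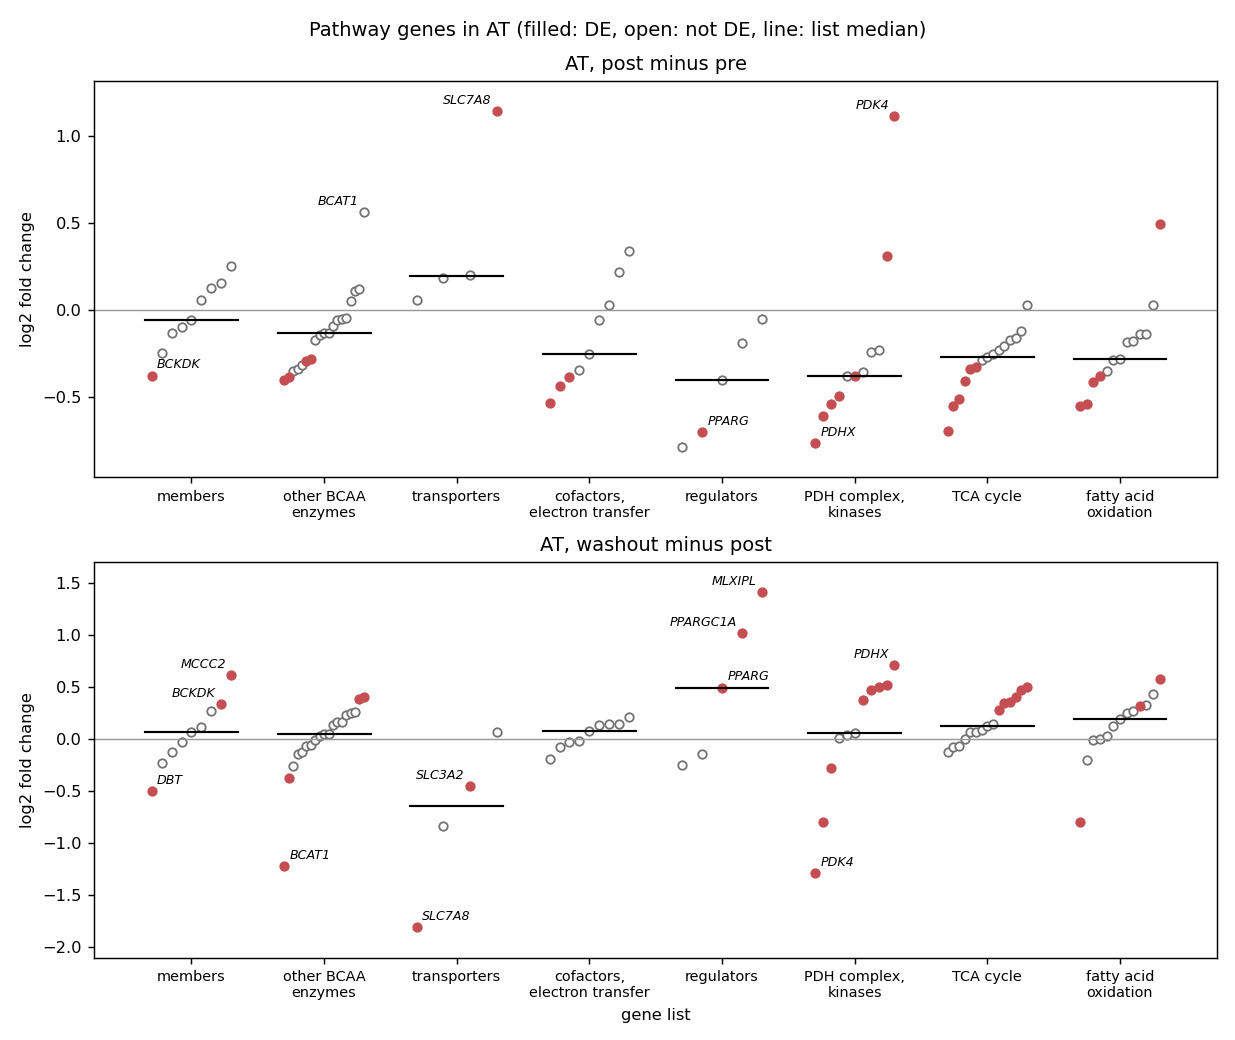
Log2 fold change (vertical axes) in AT of each gene tested in 8 lists (horizontal axis), post-treatment against pre-treatment above and washout against post-treatment below. Filled points were DE, open points were not, and black lines give the list medians. The members' medians were -0.06 and 0.06, while the PDH list had a post-treatment median of -0.38 with PDK4 at 1.12.

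In SM no member was DE between any of the time points, and few genes of any kind were by edgeR's test. By edgeR's quasi-likelihood test 0 of 12617 genes (0%) were DE post-treatment, 24 (0.19%) from post-treatment to washout and 8 (0.0634%) from pre-treatment to washout, and at an unadjusted p under 0.05 there were 409, 2181 and 1691. Of the members, PPM1K alone was under an unadjusted p of 0.05, in 1 of the 3 comparisons, and DESeq2 and voomWithQualityWeights also called none of the 9. Over all genes DESeq2 called 359 from post-treatment to washout and 170 from pre-treatment to washout. For the latter comparison voomWithQualityWeights, from limma, called 11. The paper, which also used limma, reported many more DE genes there in SM than the 8, 170 and 11 called here. The reason for that gap was not tested. The animals spread widely: BCAT2 ranged from 10.8 to 50.0 CPM over the 8 post-treatment libraries, BCKDK from 36.9 to 105 CPM and HIBADH from 68.6 to 193.8 CPM. Summed slow fiber markers ranged from 382.6 to 30830 CPM over the same libraries, and fast fiber markers from 36750 to 171800 CPM. The slow markers, BCAT2 and BCKDK were highest in animal 20456, and the fast markers and HIBADH in animal 19832. The part of fiber type in these values was not tested. BCAT2 was at 29.7 ± 7.29 CPM pre-treatment (n = 6), 27.8 ± 13.0 CPM post-treatment (n = 8) and 31.3 ± 6.12 CPM at washout (n = 7). BCKDK was at 75.8 ± 18.1, 66.4 ± 26.1 and 78.2 ± 20.6 CPM, a post-treatment difference of -0.25 (SE 0.21, adjusted p = 1), and its fall in AT was not shown to differ from this (difference of the changes -0.18, SE 0.24, adjusted p = 0.839).

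PPM1K had the largest fitted differences of the members in SM post-treatment and from there to washout. It ranged from 3.79 to 18.2 CPM pre-treatment (median 7.39), from 3.68 to 8.07 CPM post-treatment (median 5.33) and from 6.33 to 26.9 CPM at washout (median 11.9), with 59 to 390 counts per library. The washout range rested on animal 20275 at its upper end. The difference was -0.56 (SE 0.34, adjusted p = 1) post-treatment and 1.01 (SE 0.33, adjusted p = 0.161, unadjusted p = 0.00742) from there to washout, with PPM1K higher in 6 of 7 animals. DBT was at 9.38 ± 2.89, 9.74 ± 3.10 and 13.4 ± 2.63 CPM, with a difference from post-treatment to washout of 0.38 (SE 0.22, adjusted p = 0.388). With the identifier series as a covariate it was DE, at 0.84 (adjusted p = 0.0213) from post-treatment and 0.88 (adjusted p = 0.0318) from pre-treatment, in fits that called 2648 and 1353 genes in place of 24 and 8. The SM washout libraries were 6 of the last series and 1 of the middle series, while the post-treatment ones were 5 of the first and 3 of the last, so that series and time point are nearly confounded there.

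The remaining members in SM differed by at most 0.25 in either direction. MCCC2 was at 22.3 ± 4.78, 21.8 ± 5.10 and 24.1 ± 6.61 CPM, and MCCC1 at 24.5 ± 3.54, 27.0 ± 5.42 and 25.9 ± 6.07 CPM. HIBADH was at 130.3 ± 26.0, 141.8 ± 45.1 and 141.0 ± 39.5 CPM. BCKDHA was at 25.3 ± 4.06, 24.1 ± 9.90 and 28.9 ± 7.15 CPM, and BCKDHB at 15.3 ± 3.78, 13.6 ± 5.33 and 13.1 ± 3.10 CPM. The post-treatment library of animal 21189 stood apart from the other SM libraries, with the lowest summed level of muscle markers (53910 CPM, where the median of its group was 184100) and the highest of progenitor and matrix markers (16890 CPM, median 2515). In that animal 9 of 9 members were lower post-treatment than pre-treatment, and in animal 22130 9 of 9 were lower at washout than pre-treatment, while in animal 23004 9 of 9 were higher. The washout library of animal 22130 had the highest summed macrophage (384.6 CPM, median 51.6), progenitor (4097 CPM, median 1200) and endothelial (294.2 CPM, median 148.2) markers of its group and the lowest muscle markers (188100 CPM, median 240300), and their part in the members' values was not tested. Without the post-treatment library of animal 21189, or without animal 22130, no member was DE in SM by edgeR's test.

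**Figure D4:**
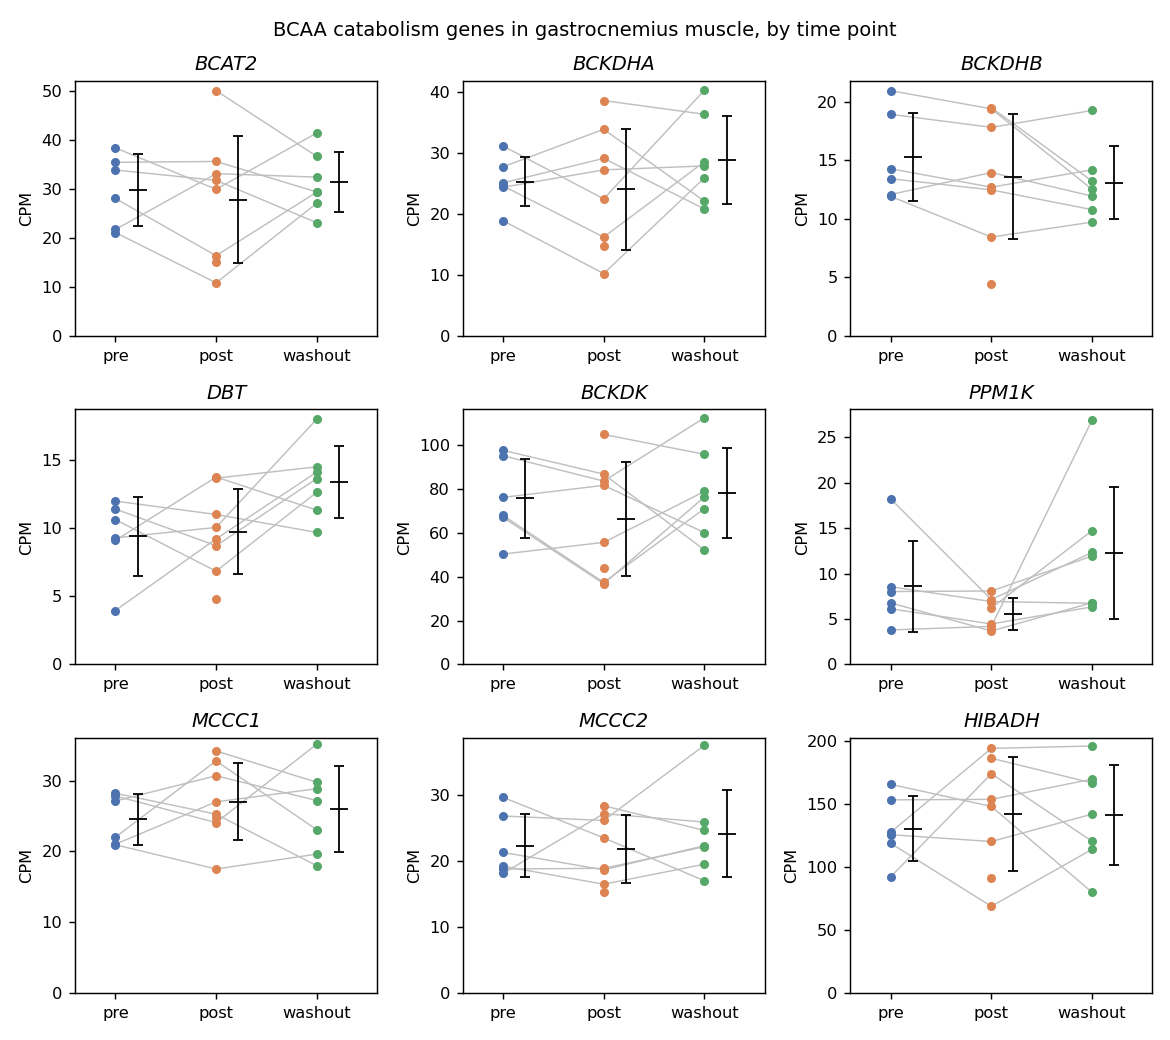
CPM of the 9 members in SM (vertical axes, each from 0) at pre-treatment (n = 6), post-treatment (n = 8) and washout (n = 7). Each point is 1 library, grey lines join the libraries of 1 animal, and the black marks give the mean and SD. The groups overlap for every member, and the highest PPM1K library at washout, that of animal 20275, lies at 26.9 CPM.

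The changes of the tissues were compared directly as an interaction of tissue and time point over the 12322 genes tested in both. Post-treatment 0 of 9 members differed between AT and SM in their change (0.0487% of all genes did), with PPM1K, at 0.77 (SE 0.33, adjusted p = 0.391), the 1 member under an unadjusted p of 0.05. DESeq2 and voomWithQualityWeights also called 0 of 9. From post-treatment to washout 2 of 9 differed, against 22.7% of all genes, and from pre-treatment to washout 1 of 9, against 17.5%. For DBT the change in AT minus that in SM was -0.89 (SE 0.24, adjusted p = 0.00678) from post-treatment to washout and -1.004 (SE 0.24, adjusted p = 0.00377) from pre-treatment to washout. DBT was lower at washout than pre-treatment in 8 of 8 animals in AT and higher in 5 of 6 in SM. For MCCC2 the difference was 0.51 (SE 0.17, adjusted p = 0.0269) from post-treatment to washout. MCCC2 lost that call without animal 20261, 20456 or 21189, at 0.44 to 0.49 and adjusted p-values of 0.0591 to 0.0732, and without animal as a block it was 0.50 (adjusted p = 0.0767). Without animal 22130 BCKDHA was DE as well, at -0.73 (adjusted p = 0.0252). DBT kept both calls in all 18 alternative fits of each, which did not include the identifier series as a covariate.

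Before treatment, the level of each member in AT was compared with its level in SM, where CPM were scaled jointly and so differ from the values above. By that scaling 5 of 9 members were lower in AT and 0 higher, while 72.5% of all 13398 genes tested were DE between the tissues and 34.3% were lower in AT. BCAT2 ranged from 10.2 to 20.6 CPM in AT and from 30.7 to 54.5 CPM in SM, a difference of -1.65 (SE 0.21, adjusted p = 0.000102). BCKDK ranged from 40.4 to 64.0 CPM in AT and from 71.4 to 140.3 CPM in SM (-1.03, SE 0.14, adjusted p = 0.00015). HIBADH ranged from 57.6 to 115.9 CPM in AT and from 130.3 to 237.2 CPM in SM (-1.04, SE 0.17, adjusted p = 0.000504). BCKDHB ranged from 8.07 to 13.3 CPM in AT and from 16.6 to 30.1 CPM in SM (-0.96, SE 0.16, adjusted p = 0.000508). For these 4 the groups did not overlap, as was the case, with AT lower, for 23.8% of all genes. PPM1K overlapped between the tissues (-0.64, SE 0.24, adjusted p = 0.0342) and lost its call without animal 22130, 23004 or 24849.

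The scaling sets the zero point of that comparison. In SM 10 genes took 12.2% to 28.6% of the counts of a library, against 6.05% to 11.6% in AT. With library size alone in place of TMM the median difference of all genes moved from 0.10 to 0.93, the DE genes were 80.2% higher in AT in place of 52.8%, and every member moved up with them. BCAT2 was still lower in AT, at -0.81 (adjusted p = 0.00573), but BCKDHB, BCKDK and HIBADH, at -0.12 to -0.20, were no longer DE, and PPM1K changed sign (0.19, adjusted p = 0.505). DBT, MCCC1, BCKDHA and MCCC2 became higher in AT, at 0.85, 0.99, 0.66 and 0.62. The order of the 9 members was the same under both scalings. A change of scaling moves all genes by nearly the same amount, so the order could hardly differ and adds no support. Relative to the median of all genes BCAT2, HIBADH, BCKDK and BCKDHB stood lowest in AT, and MCCC1 and DBT close to that median. The decarboxylase partners BCKDHA and BCKDHB, of 1 enzyme, differed between the tissues by -0.17 (SE 0.17) and -0.96 (SE 0.16).

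**Figure D5:**
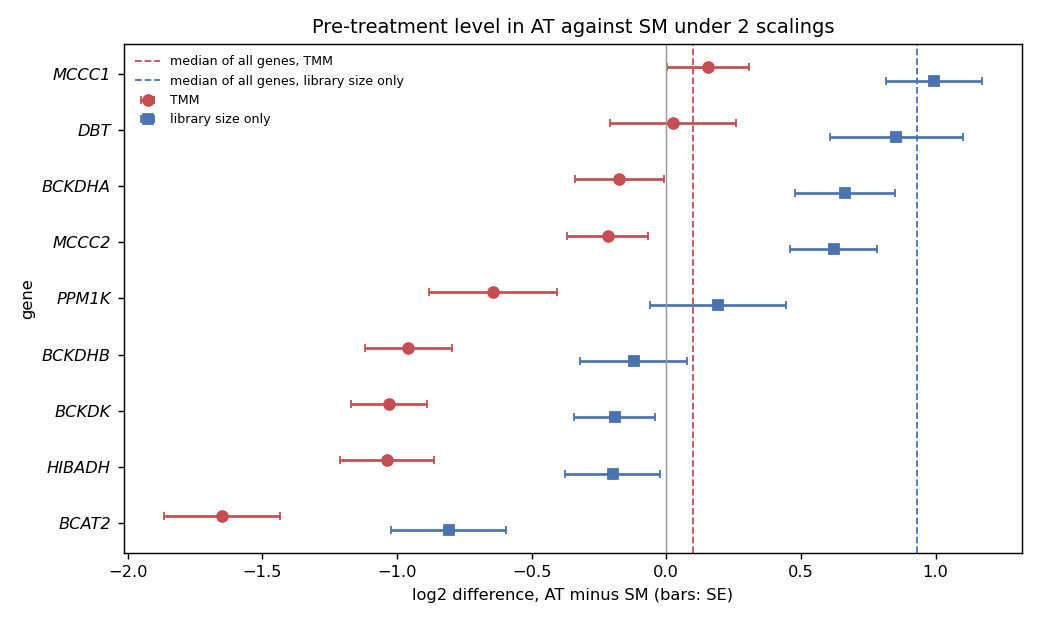
Log2 difference in pre-treatment level, AT minus SM (horizontal axis), of the 9 members under TMM scaling (red circles) and scaling by library size alone (blue squares). Bars give the SE and dashed lines the median over all genes under each scaling, 0.10 and 0.93. Every member lies further right with library size alone, and BCAT2 is the lowest under both.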

How the data were processed

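Poly(A) RNA from AT and SM biopsies was made into stranded libraries and sequenced as paired reads. The authors used STAR and the MacaM assembly for alignment, and deposited raw counts per gene for 48 of 51 labelled samples. The read counter and the tool versions are not given in the sources used here. Of 16103 entries, 70 repeated a gene with identical counts and were dropped.

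Libraries were grouped by the tissue and time point of their labels, and libraries of 1 animal were paired through the animal number in the labels. As a check, after removal of time point means, libraries of 1 animal had a median correlation over genes of 0.352 in AT and 0.279 in SM, against -0.0354 and -0.0464 for different animals. No 2 libraries had identical counts. Genes that reached 0.5 CPM in 10% or more of a tissue's libraries were tested with the robust quasi-likelihood method of edgeR 4.0.16 in R 4.3.3, with TMM factors, time point and animal, and Benjamini-Hochberg adjustment. All tests were two-sided. Log2 CPM used a prior count of 2. The fit was run on simulated counts without animal effects, with rises larger than the change of any member between time points. That run therefore cannot show how well changes of the members' size are found. The members held 51 or more counts in every library. Precision rests on how the changes within animals vary over all the time points in a fit and on counting noise, and the share of each was not tested.

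The named genes were all members, the other pathway genes (enzymes, transporters, cofactors, regulators) that were DE in AT post-treatment or from there to washout, PDHA1, PDHB, DLAT and PDK4, and the 5 genes most correlated with the members in AT. DLD, LPL and PLIN1 were named after their values were seen. The members and lists were chosen with earlier results of these data known. The alternatives were voomWithQualityWeights of limma 3.58.1, DESeq2 1.42.0, DESeq2 size factors, library size alone, no filter, a minimum of 10 counts per library, no animal block, no fold change limit, only the 2 time points compared, the identifier series, marker levels as covariates and each animal left out. Added after the data were seen were the earlier quasi-likelihood method and the fits without animals 20275 and 22130, without the AT washout library of animal 23004 and without the SM post-treatment library of animal 21189. The identifier series are number ranges of library names, and whether they mark batches is unknown. Sequences of the genes were not used here.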

Additional observations from a re-analysis of the deposited data

Results flagged for a closer look

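Within the 54 groups of libraries (9 members, 6 groups), 6 had a library that stood apart from the rest of its group by Dixon's ratio, where chance gives about 1 in 20 groups. In AT at washout these were BCAT2 in animal 21866 (27.9 CPM, next 18.9) and MCCC2 in animal 20261 (68.2 CPM, next 51.1), and post-treatment BCKDHA in animal 26292 (66.5 CPM, next 53.6), which barely passed. In SM they were DBT pre-treatment in animal 19832 (3.95 CPM, next 9.09), PPM1K pre-treatment in animal 22130 (18.2 CPM, next 8.55) and PPM1K at washout in animal 20275 (26.9 CPM, next 14.7). MCCC2 was DE at washout in AT without animal 20261 as well.

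The change of DBT differed between AT and SM, with an interaction of -0.89 from post-treatment to washout and of -1.004 from pre-treatment to washout. From pre-treatment to washout DBT fell by 0.44 in AT, while the SM value was 0.49 (adjusted p = 0.373), with the pre-treatment library of animal 19832 at 3.95 CPM among the SM values. Without animal 19832 DBT was DE in both interactions by edgeR's test. The change of MCCC2 from post-treatment to washout differed by 0.51, from a rise of 0.61 in AT and a value of 0.08 (adjusted p = 0.794) in SM.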

How the results depend on the processing

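Of 1890 values of the members under alternatives, 1846 stayed on the same side of the DE limit, 27 lost a call, 14 gained one and 3 changed sign with a call in 1 fit. A further 120 values that were DE in neither fit changed sign. The 1 member DE in AT post-treatment became 0 with the macrophage or adipocyte covariate, without the pre-treatment library of animal 20275 (BCKDK -0.35, adjusted p = 0.0711) and without animals 20275 and 22130, and was 0 to 1 with 1 animal left out. In SM the count from post-treatment and from pre-treatment to washout went from 0 to 1 with the identifier series. For AT against SM from post-treatment to washout it went from 2 to 1 without the animal block, and was 1 to 3 with 1 animal left out, the highest without animal 22130. The animal block changed no other count of members by over 1.5 times. From pre-treatment to washout the AT against SM count went from 1 to 2 with library size alone, which added MCCC2 (0.60, adjusted p = 0.00722) and moved the median of all genes from -0.01 to 0.23. PPM1K, BCKDHA and MCCC2 changed sign in the pre-treatment level of AT against SM with library size alone, to 0.19, 0.66 and 0.62. The cause of these changes was not tested beyond that shift.

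Calls that other fits added or removed were few. From post-treatment to washout in AT, BCKDK was not DE with only the 2 time points (0.33, adjusted p = 0.08), and PPM1K was DE with voomWithQualityWeights (0.35, adjusted p = 0.0222), with library size alone (0.34) and without animal 20275 (0.33). BCKDHA was DE there without animal 21866 (-0.32), and HIBADH was DE from pre-treatment to washout with the identifier series (-0.28, adjusted p = 0.021) and the macrophage covariate (-0.41), which also called BCAT2 from post-treatment to washout (-0.67). Over all genes, the 2068 DE genes of AT post-treatment became 311 with the macrophage covariate, 404 with the adipocyte covariate and 801 without animal 22130, and the 4731 from there to washout became 1727 with the macrophage covariate. The 24 and 8 in SM ranged from 0 to 2648 and from 0 to 1353, and the 6 of AT against SM post-treatment from 0 to 74. The comparisons rest on 8 or 9 paired animals in AT and 6 or 7 in SM.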
